A study of Homo sapiens with 16 samples.

Results

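The peaks described here lie outside the assembled chromosomes of the human genome build hg38. They are all peaks of 20 ChIP-seq peak lists whose sequence name, without its chr prefix, is not a number from 1 to 22 and not X, Y, M or MT. The rule gave 22943 of 2640340 peaks. It was written for unplaced sequences, which no chromosome has been assigned, and unlocalized sequences, which have a chromosome but no position on it. Most members are neither: 18315 of the 22943 lie on alternate loci (names ending in alt), which are further haplotype copies of places that the chromosomes already hold, 2315 lie on unlocalized sequences (names ending in random) and 2313 on unplaced ones (names starting with chrUn). The 2 kinds behaved differently, so peaks on unplaced and unlocalized sequences (4628 in all) are described first and alternate loci beside them.

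In the human assembly, unplaced and unlocalized sequences come largely from pericentromeric, satellite-rich and duplicated DNA and from ribosomal DNA, the tandem repeat that codes for the 45S ribosomal RNA precursor. Such repeats are a known home of constitutive heterochromatin, in which histone H3 is trimethylated at lysine 9 (H3K9me3). TRIM28 is a corepressor that is brought to repeats by zinc finger proteins and recruits SETDB1, a methyltransferase that places H3K9me3. ARID1A is a DNA-binding subunit of the SWI/SNF chromatin remodeller. Reads from a repeat can map to several of its copies, so peaks on different sequences are not independent measurements.

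The cells are HCT116, a human colon cancer line, cultured in RPMI1640 medium with serum. In the order used below, shARID1A cells (titles naming a short hairpin RNA against ARID1A) had H3K9me3, TRIM28 and SETDB1 libraries, shCtrl cells (titles with CTR, read as the control hairpin) had these and ARID1A, and unmodified cells (no hairpin named) had ARID1A, H3K9me3 and TRIM28. Each of the 10 groups held 1 library, so differences between cell states have no replicate check, and all intervals below are 95% intervals of counting error only. No list of ARID1A ChIP from shARID1A cells is used, and the level of ARID1A was not measured. Every library has 1 list called against input and 1 against IgG, and values below are from the input lists unless IgG is named. The antibody product named for H3K9me3 and TRIM28 differs between the protocol and the sample characteristics. Overlaps on the chromosomes put the labels of a pair of libraries in doubt: 28% of shARID1A H3K9me3 peaks lay at a shCtrl SETDB1 peak there, against 5.9% at a shCtrl H3K9me3 peak. On unplaced and unlocalized sequences 6.19% lay at a shCtrl SETDB1 peak (12 of 194; difference from the chromosomes -21.9 percentage points, -24.5 to -17.5). In the reverse direction 22.4% of 49 shCtrl SETDB1 peaks there lay at a shARID1A H3K9me3 peak, against 20.1% on the chromosomes.

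Peaks on unplaced and unlocalized sequences were strong more often than peaks on the chromosomes in 9 of the 10 libraries. Where local background was below 3 times the chromosome median, the excess was beyond counting error in 4 of the 10. None of these was an H3K9me3 library. A peak is called strong here where its deposited q, the adjusted p of the peak caller, is at most 0.05. In shARID1A cells, 38.7% of 194 H3K9me3 peaks were strong on these sequences and 21.3% on the chromosomes. For TRIM28 in the same cells the shares were 21.9% of 659 and 1.05%, and for SETDB1 42.7% of 143 and 3.48%. All 3 differences had an interval above 0, the widest gap being that of SETDB1, 39.2 percentage points (31.4 to 47.4). Against IgG all 3 gaps were smaller: 4.79 percentage points for H3K9me3 (1.5 to 8.68), 16.9 for TRIM28 (14 to 20.3) and 16.9 for SETDB1 (12.9 to 21.6).

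The shCtrl libraries showed the same order. SETDB1 had 63.3% strong of 49 peaks and 47.5% on the chromosomes, H3K9me3 had 14.7% of 95 and 7.42%, and ARID1A had 9.47% of 95 and 0.0404%. TRIM28 had 18.2% of 148 and 0.0397%, and since this list held 55 strong peaks in all, the 27 on unplaced and unlocalized sequences were 49.1% of them (35.4% to 62.9%). In unmodified cells H3K9me3 had 11.2% strong of 98 and 0.149%, and TRIM28 had 11.8% of 76 and 0.207%. Here 11 of the 28 strong H3K9me3 peaks of the whole list lay on unplaced and unlocalized sequences, 39.3% (21.5% to 59.4%). Unmodified ARID1A was the exception against input, with 0 of 35 strong (exact interval 0% to 10%), against 2.83% on the chromosomes. Against IgG it was no exception, with 16.2% of 74 strong and 1.57% on the chromosomes. The interval of the difference lay above 0 in 9 of the 10 input lists and in 8 of the 10 IgG lists. The IgG lists left out are shCtrl H3K9me3 (7.17%, chromosomes 6.96%) and shCtrl SETDB1 (49.5%, chromosomes 48.4%). Alternate loci lay close to the chromosomes, with an interval above 0 in 2 of 10 input lists and in 1 of 10 IgG lists, where 4 lay below 0.

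**Figure D1:**
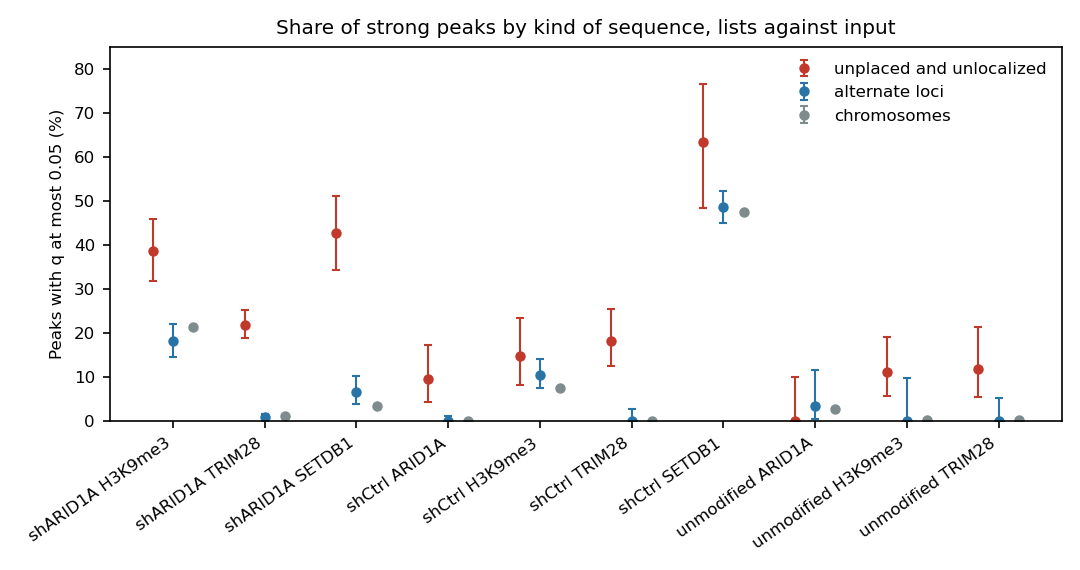
Share of peaks with q at most 0.05 (y axis, percent) in each of the 10 input lists (x axis), for unplaced and unlocalized sequences, alternate loci and chromosomes; points are shares and bars exact 95% intervals of counting error. Unplaced and unlocalized sequences stand above the chromosomes in every library but unmodified ARID1A, with 42.7% against 3.48% in shARID1A SETDB1.

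How many peaks lay on these sequences differed between shARID1A and shCtrl cells in all 3 antibodies. H3K9me3 had 194 peaks covering 58.7 kb in shARID1A cells and 95 covering 26.5 kb in shCtrl cells, a log2 ratio of 1.03 (0.67 to 1.40). On the chromosomes the same ratio was -0.69. TRIM28 had 659 peaks covering 242 kb in shARID1A cells and 148 covering 41.0 kb in shCtrl cells, a log2 ratio of 2.15 (1.90 to 2.42), against 1.53 on the chromosomes. SETDB1 had 143 peaks covering 71.2 kb in shARID1A cells and 49 covering 21.2 kb in shCtrl cells, a log2 ratio of 1.55 (1.07 to 2.04), against -1.02 on the chromosomes. For H3K9me3 and SETDB1 the direction over all peaks against input was thus opposite to that of the chromosomes. Over all peaks against IgG, given below, both had the direction of the chromosomes. Each of these antibodies also has a library of the pair whose labels are in doubt, shARID1A H3K9me3 and shCtrl SETDB1. Mean fold enrichment, the authors' value of summit over local background, was nearly the same in both states for H3K9me3 (2.86 and 2.72) and TRIM28 (2.92 and 2.93), and lower in shARID1A cells for SETDB1 (3.33 and 3.82).

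The control moved these values. Against IgG the log2 ratio of H3K9me3 was 0.60 (0.38 to 0.83), that of TRIM28 0.27 (0.096 to 0.45) and that of SETDB1 1.78 (1.45 to 2.13), and those on the chromosomes 0.26, 0.090 and 1.27. Over all peaks each ratio stayed above that of the chromosomes against IgG too, but for TRIM28 by little. As a share of the list, H3K9me3 had a log2 ratio of 1.71, TRIM28 of 0.61 and SETDB1 of 2.56 against input, and 0.35, 0.18 and 0.515 against IgG. Strong peaks alone gave another order against input. The log2 ratio of H3K9me3 was then 2.42 (1.59 to 3.36) and 0.83 on the chromosomes, the same direction. For TRIM28 it was 2.42 (1.81 to 3.07), below the 6.25 of the chromosomes, and for SETDB1 0.98 (0.33 to 1.65), opposite to their -4.79. Strong peaks against IgG gave 1.87 (1.14 to 2.66) for H3K9me3, 1.03 (0.54 to 1.54) for TRIM28 and 0.43 (-0.14 to 1.01) for SETDB1, with 1.09, 2.63 and -3.02 on the chromosomes. The depth of the libraries is unknown and the input and IgG samples are labelled by cell state, and the part of both in these ratios was not tested.

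Alternate loci went the way of the chromosomes for SETDB1, with 258 peaks in shARID1A and 739 in shCtrl cells, a log2 ratio of -1.52 (-1.73 to -1.31). For TRIM28 they had 1580 and 137 peaks, a log2 ratio of 3.53 (3.28 to 3.79), and for H3K9me3 420 and 344, a log2 ratio of 0.29 (0.079 to 0.50). The H3K9me3 direction was opposite to that of the chromosomes (-0.69), as on unplaced and unlocalized sequences. Taking every sequence of the rule together turned the SETDB1 ratio to -0.975 (-1.15 to -0.80).

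**Figure D2:**
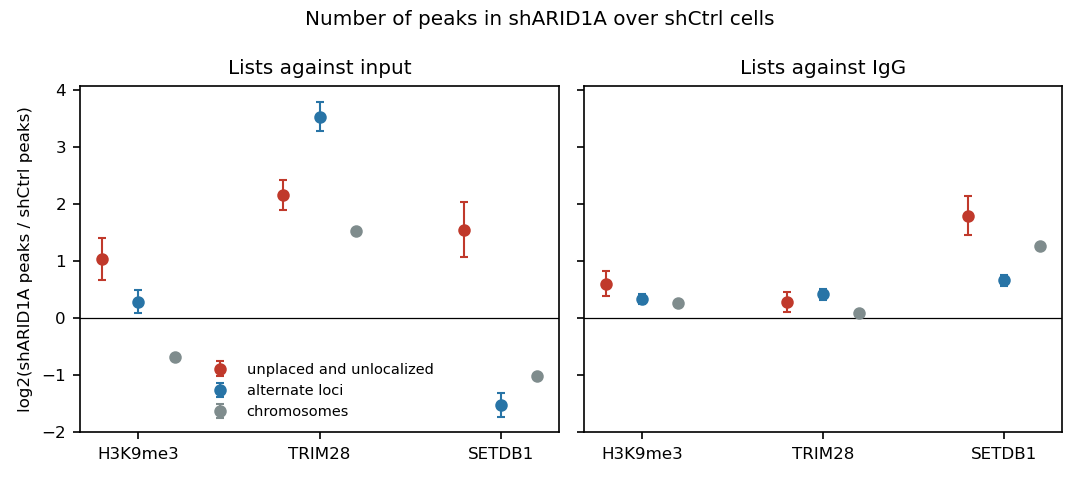
Log2 ratio of the number of peaks in shARID1A over shCtrl cells (y axis) for 3 antibodies, against input (left) and IgG (right), on unplaced and unlocalized sequences, alternate loci and chromosomes; bars are exact 95% intervals of counting error. On unplaced and unlocalized sequences the ratios are 1.03, 2.15 and 1.55 against input, and against IgG 0.60, 0.27 and 1.78.

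Between shCtrl and unmodified cells, for which the labels name no hairpin against ARID1A, H3K9me3 on these sequences had 95 peaks in shCtrl and 98 in unmodified cells, a log2 ratio of -0.045 (-0.47 to 0.38), while on the chromosomes it was 3.02. As a share of the list the unmodified H3K9me3 list held the most, 0.851% (0.691% to 1.04%), against 0.103% in shCtrl H3K9me3. ARID1A had 95 peaks in shCtrl and 35 in unmodified cells, a log2 ratio of 1.44 (0.87 to 2.04), and TRIM28 148 and 76, a log2 ratio of 0.96 (0.55 to 1.38). The intervals of both hold the values of the chromosomes, 1.88 and 1.1.

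The 1592 peaks of the input lists lay on 96 unplaced and unlocalized sequences. The 5 sequences with the most peaks held 29.6% of the peaks. The 5 with the most strong peaks, not all the same ones, held 54.1% of the 381 strong peaks. A strong peak was found on 45 sequences. On 22 of them strong peaks occurred in shARID1A cells and in another state, on 19 only in shARID1A libraries and on 4 in no shARID1A library. The 3 shARID1A libraries held 280 of the strong peaks, the 4 shCtrl libraries 81 and the 3 unmodified libraries 20. On the chromosomes the order was another, with 15660 in shARID1A, 44630 in shCtrl (37723 of them from SETDB1) and 921 in unmodified libraries. Against IgG, shARID1A H3K9me3, TRIM28 and SETDB1 had 73, 106 and 62 strong peaks on unplaced and unlocalized sequences. There shCtrl ARID1A, H3K9me3, TRIM28 and SETDB1 had 19, 20, 52 and 46, and unmodified ARID1A, H3K9me3 and TRIM28 had 12, 94 and 48. With this control the unmodified libraries no longer came last. Named below are sequences among the 8 with the most peaks of all kinds, and those with a strong peak in at least 3 libraries. These were 47, of which 22 were unplaced or unlocalized and 25 alternate.

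The unlocalized chr14_GL000225v1_random held the most, 159 peaks, of which 66 were strong in 8 libraries. H3K9me3 had 21 peaks (12 strong) on it, TRIM28 69 (34) and SETDB1 4 (1) in shARID1A cells, against 9 (1), 31 (11) and 4 (3) in shCtrl cells. TRIM28 led there in both states, and SETDB1, although its shCtrl list is the one with the most strong peaks of all, was sparse. Unmodified H3K9me3 and TRIM28 had 14 (3) and 6 (0). Leaving this sequence out gave log2 ratios of 1.01, 2.33 and 1.63, so the differences between the states did not rest on it.

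The unplaced chrUn_GL000216v2 held 80 peaks, 40 of them strong, with strong peaks in 8 libraries. H3K9me3, TRIM28 and SETDB1 had 11 (8 strong), 37 (12) and 4 (3) in shARID1A cells, and 6 (4), 12 (7) and 2 (2) in shCtrl cells. ARID1A had 0 peaks on it in shCtrl and in unmodified cells. A single site of 306 bp, from 149446 to 149751, was strong in all 6 libraries that held it, which are the 3 antibodies in both hairpin states. Its H3K9me3 fold was 2.34, its TRIM28 fold 2.64 and its SETDB1 fold 1.99 in shARID1A cells, and 3.08, 3.45 and 3.17 in shCtrl cells.

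The unlocalized chr1_KI270709v1_random separated the states against input. H3K9me3 had 11 peaks, TRIM28 31 and SETDB1 9 in shARID1A cells, and 1, 2 and 0 in shCtrl cells. All 32 strong peaks were in the 3 shARID1A libraries. Against IgG this order was lost for H3K9me3 and TRIM28 and kept for SETDB1: the counts were 3, 14 and 5 in shARID1A cells and 3, 14 and 0 in shCtrl cells. Local background at its peaks was high, with a median of 24.8 fragments. Other sequences of high background were chrUn_KI270467v1 (median 168 fragments), chrUn_KI270466v1 (76.0) and chrUn_KI270438v1 (75.0).

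**Figure D3:**
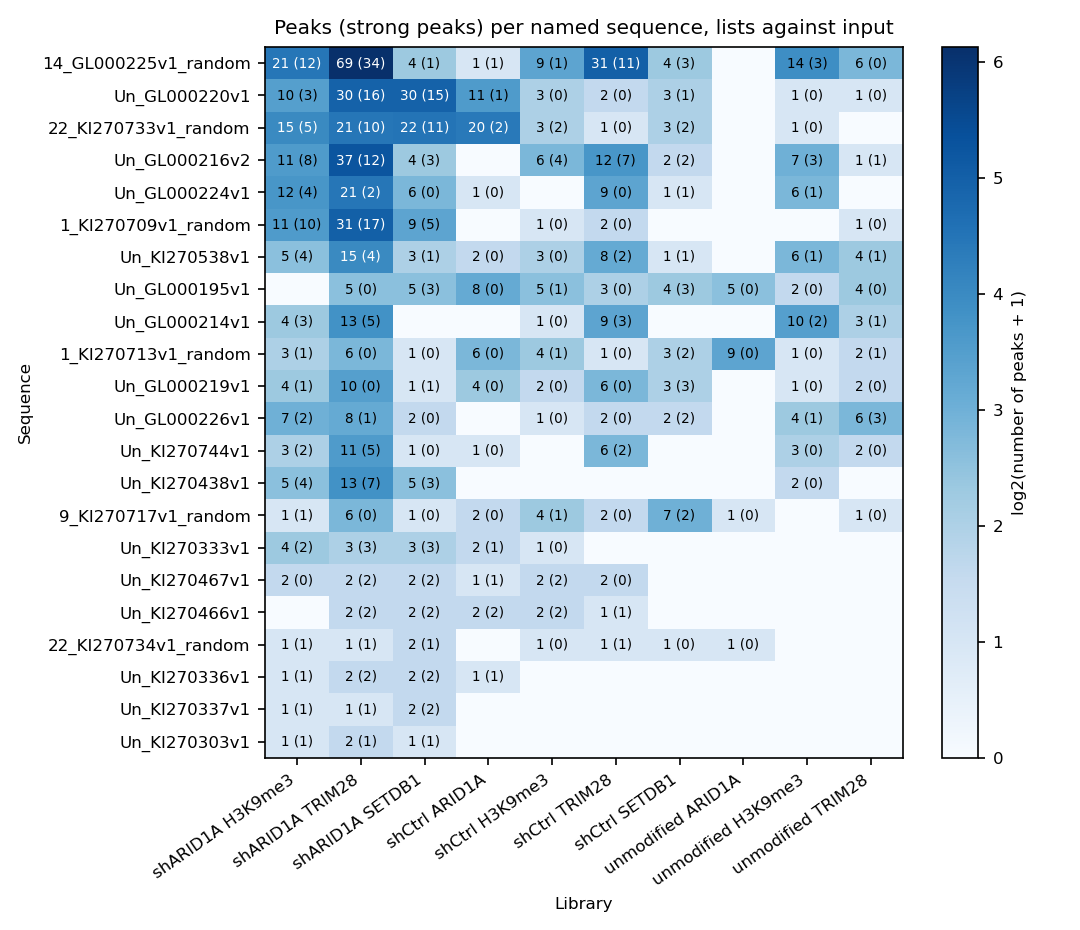
Number of peaks (strong peaks in brackets) of each input list (columns) on the 22 named unplaced and unlocalized sequences (rows, chr prefix removed), with colour for log2(number + 1); blank cells hold 0 peaks. The shARID1A TRIM28 column is the fullest, with 69 peaks on the top row, and unmodified ARID1A has peaks on 4 of the rows.

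The leading peaks of 4 libraries lay on a single sequence. On the short chrUn_KI270466v1, TRIM28 of shARID1A cells had its leading peak of all members from 53 to 625, with a fold of 3.28 and a −log10 q of 45.8, and SETDB1 of the same cells from 278 to 636, with 2.92 and 36.0. The leading peaks of shCtrl ARID1A (867 to 1178, fold 3.15, −log10 q 28.3) and shCtrl H3K9me3 (907 to 1168, 2.54, 15.4) lay on it too. These are low folds with very low q values, on a sequence of high background. Of these 4 peaks, the TRIM28 one was also in the IgG list of its library and the other 3 were not.

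The highest −log10 q of all members, 96.1, belonged to shCtrl SETDB1 on chr1_KI270713v1_random, from 20582 to 22778, with a fold of 13.4. The region around it, 20524 to 22925, held peaks of 7 libraries, 4 of them strong. H3K9me3 had a fold of 3.09 in shARID1A and 2.64 in shCtrl cells, both strong. SETDB1 had a fold of 1.93 in shARID1A cells, not strong, and 13.4 in shCtrl cells. ARID1A peaks of shCtrl (3.09) and unmodified cells (2.01) were not strong, and unmodified TRIM28 (3.89) was.

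A pair of regions of chrUn_KI270538v1 were each held by 7 libraries. In the region from 53252 to 54130 folds were 4.19 for H3K9me3 and 4.31 for TRIM28 in shARID1A cells, and 1.53, 3.29 and 2.81 for H3K9me3, TRIM28 and SETDB1 in shCtrl cells, and 2.43 and 2.14 for H3K9me3 and TRIM28 in unmodified cells, with 5 of the 7 libraries strong. In the region from 83666 to 84360 the 3 shARID1A libraries were strong, with an H3K9me3 fold of 4.25, a TRIM28 fold of 3.52 and a SETDB1 fold of 3.42, and the other 4 libraries were not, with folds of 1.56 to 3.16. The 2 leading peaks of unmodified H3K9me3 lay on chrUn_GL000214v1 (120788 to 121136, fold 3.31) and chrUn_GL000224v1 (8165 to 8458, fold 2.74), and the leading peak of unmodified TRIM28 on chrUn_GL000226v1 (10801 to 11152, fold 3.72). Each of these 3 was also held by 3 other libraries.

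Most of the 45S ribosomal RNA genes on these sequences was covered by TRIM28 and SETDB1 peaks in shARID1A cells, where peaks of every q were counted. The 45S genes concerned are RNA45SN5, at 105424 to 118780, and RNA45SN4, at 122273 to 135645. The RefSeq table of GRCh38.p14 names no chromosome for RNA45SN5 and only chromosome 22 for RNA45SN4. They were placed on chrUn_GL000220v1 and chr22_KI270733v1_random from knowledge of the assembly, after the peaks on both had been seen.
Peaks of shARID1A TRIM28 covered 95.1% of RNA45SN4 and 76.6% of RNA45SN5, those of shARID1A SETDB1 86.3% and 56.3%, and those of shARID1A H3K9me3 12.0% and 5.59%. Coverage here and below counts every listed peak, strong or not. Of the shARID1A TRIM28 peaks, 4 of 5 on RNA45SN4 and 7 of 11 on RNA45SN5 were strong. For shARID1A SETDB1 these were 4 of 7 and 10 of 17. In shCtrl cells TRIM28 covered 0% of RNA45SN4 and 2.63% of RNA45SN5, SETDB1 3.94% and 3.02%, H3K9me3 6.98% and 0%, and ARID1A 27.5% and 11.3%. The unmodified input lists had no peak in either gene. TRIM28 and SETDB1 in shARID1A cells were thus far above every other library, and shCtrl ARID1A came next on both genes. Among the libraries compared are shCtrl SETDB1 and shARID1A H3K9me3, the pair whose labels are in doubt.

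The control did not change this order among the hairpin states. Against IgG, TRIM28 covered 92.4% of RNA45SN4 and 80.7% of RNA45SN5 in shARID1A cells and 0% of both in shCtrl cells, and SETDB1 covered 91.7% and 68.5% in shARID1A cells and 0% of both in shCtrl cells. ARID1A of shCtrl cells covered 37.7% and 22%. Unmodified cells differed by control: against IgG H3K9me3 covered 23.3% and 21.7% and TRIM28 12.1% and 6.48%, with 1 strong peak among both libraries and genes.

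Within the 45S unit the coverage was not limited to the start. The 18S gene of the chromosome 22 copy, RNA18SN4, was covered to 100% by TRIM28 and 86.2% by SETDB1 in shARID1A cells, and the 28S gene, RNA28SN4, to 93.1% and 79.6%. On RNA28SN4, 2 of 3 TRIM28 peaks and 1 of 4 SETDB1 peaks were strong. The strong SETDB1 peak began 12.6 kb from the start of RNA45SN4, near the end of the 28S gene. A TRIM28 peak from 121025 to 125461 (fold 11.8, −log10 q 19.7) covers the first base of RNA45SN4, and 1 from 104307 to 106011 (fold 6.05, −log10 q 6.43) that of RNA45SN5. The highest TRIM28 folds of all members lay further along chr22_KI270733v1_random, in a further stretch with peaks 45.4 to 57.4 kb from the start of the gene: 16.8 from 171590 to 174788 and 14.3 from 167636 to 170542. SETDB1 of the same cells reached 13.0 there, from 173032 to 173469. On chrUn_GL000220v1 a like stretch begins 42.9 kb from the start of the gene and holds the 18S pseudogene RNA18SP3 at 153050 to 154918, where 7 libraries had a peak, 2 of them strong (shARID1A TRIM28, fold 5.23, and shARID1A H3K9me3, 3.63).

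Summed over both sequences there were 25 H3K9me3, 51 TRIM28 and 52 SETDB1 peaks in shARID1A cells, with 8, 26 and 26 strong. In shCtrl cells there were 6, 3 and 6, with 2, 0 and 3 strong, and 31 of ARID1A with 3 strong. The median local background of these peaks over the 10 lists was 2.98 fragments on chrUn_GL000220v1 and 3.02 on chr22_KI270733v1_random, with the highest at 19.8 and 36. Chromosome peaks had a median of 1.16 to 1.29 in the 3 shARID1A lists, so the background was raised here as well, and its part in these peaks was not tested. The 3 copies of the 45S gene on chromosome 21 gave like values, with 77.8% to 85.6% covered by TRIM28 and 57.4% to 68.2% by SETDB1 in shARID1A cells, and 0% to 1.95% and 0% to 4.41% in shCtrl cells. The copies share sequence and reads of one cannot be told from reads of another, so they are not separate observations. Without both sequences the SETDB1 log2 ratio of shARID1A over shCtrl was 1.08 (0.54 to 1.64), against 1.55 with them.

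**Figure D4:**
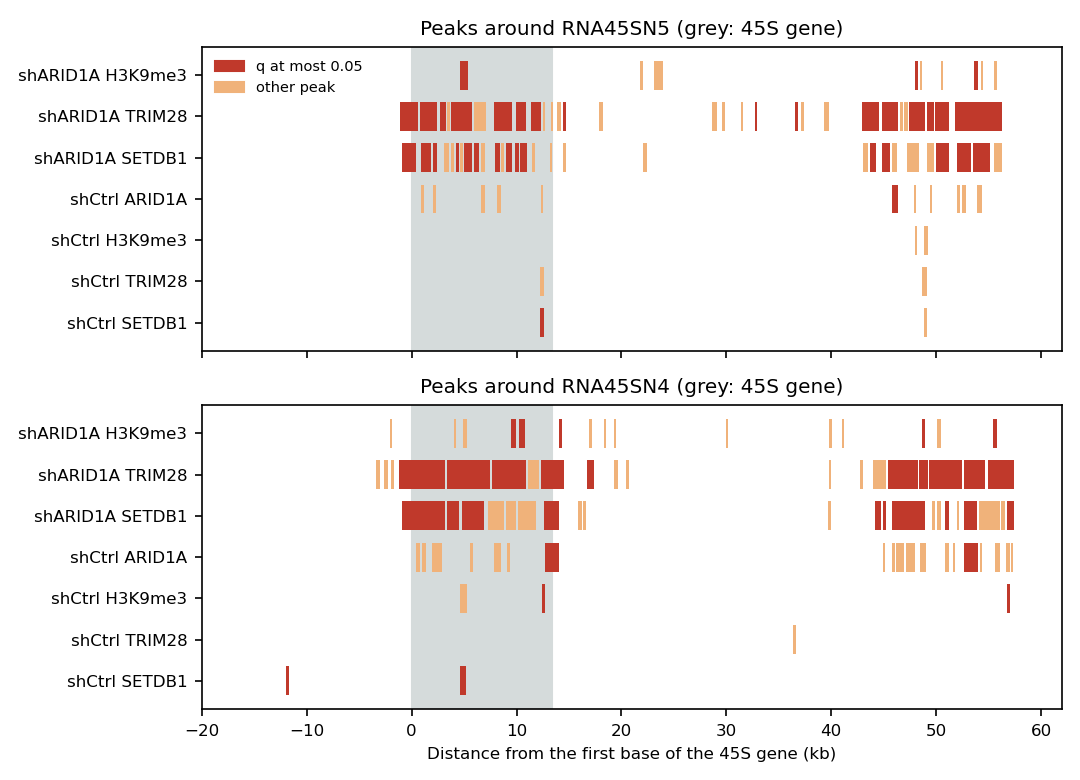
Peaks of the 3 shARID1A and 4 shCtrl input lists around RNA45SN5 (top) and RNA45SN4 (bottom), by distance in kb from the first base of the 45S gene (x axis); dark bars are peaks with q at most 0.05, light bars other peaks, and the grey field is the 45S gene. TRIM28 and SETDB1 of shARID1A cells cover 95.1% and 86.3% of RNA45SN4, and the rows of shCtrl TRIM28 and SETDB1 are nearly empty.

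Peaks on unplaced and unlocalized sequences were found again in the other hairpin state at low to moderate rates. Overlap of at least 1 bp counts. Of shARID1A TRIM28 peaks 11.2% (8.92% to 13.9%) lay at a shCtrl TRIM28 peak, against 1.93% on the chromosomes, and of shCtrl TRIM28 peaks 49.3% (41.0% to 57.7%) lay at a shARID1A one, against 5.58%. For H3K9me3 the shares were 9.79% of shARID1A peaks (chromosomes 5.9%) and 18.9% of shCtrl peaks (chromosomes 3.65%). For SETDB1 they were 9.09% of shARID1A peaks (chromosomes 9.75%) and 22.4% of shCtrl peaks (chromosomes 4.8%). The interval of the difference from the chromosomes lay above 0 in 5 of these 6 directions, and for shARID1A SETDB1 it was -0.66 percentage points (-4.37 to 5.19).

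Between shCtrl and unmodified cells H3K9me3 shared 12.6% of its shCtrl peaks (chromosomes 0.718%) and 11.2% of its unmodified peaks (chromosomes 5.68%). TRIM28 shared 7.43% of its shCtrl peaks (2.21%) and 14.5% of its unmodified peaks (4.68%). ARID1A shared 8.42% of its shCtrl peaks (3.9%) and 20.0% of its unmodified peaks (13.3%), and for the last of these the interval of the difference reached below 0 (-3.3 to 22.6).

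The highest overlaps between antibodies were in shARID1A cells. There 72.0% (63.9% to 79.2%) of the 143 SETDB1 peaks lay at a TRIM28 peak, against 17.6% on the chromosomes, and 12.6% of TRIM28 peaks at a SETDB1 peak, against 3.4%. H3K9me3 peaks lay at a TRIM28 peak in 63.9% of cases (56.7% to 70.7%; chromosomes 19.1%), and TRIM28 peaks at an H3K9me3 peak in 17.6% (chromosomes 5.37%). SETDB1 peaks lay at an H3K9me3 peak in 41.3% (33.1% to 49.8%; chromosomes 11.2%) and H3K9me3 peaks at a SETDB1 peak in 31.4% (chromosomes 7.74%). All 6 intervals of the difference lay above 0. The overlap of SETDB1 with TRIM28 was 61.5% (50.8% to 71.6%) without the ribosomal DNA sequences.

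Lists of a cell state may share a control library, and the shares were lower between lists of different controls. With TRIM28 called against IgG and SETDB1 against input the share of SETDB1 peaks was 60.8%, and with SETDB1 called against IgG and TRIM28 against input 24.7%, in an IgG list of 320 peaks. For H3K9me3 peaks at TRIM28 the values were 39.2% and 25.5%, and for SETDB1 peaks at H3K9me3 25.2% and 9.06%. How far the shared control goes into the overlap was not tested further.

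In shCtrl cells TRIM28 and H3K9me3 stood out. H3K9me3 peaks lay at a TRIM28 peak in 26.3% of 95 cases (17.8% to 36.4%; chromosomes 5.89%), TRIM28 peaks at an H3K9me3 peak in 16.9% (chromosomes 7.7%), and SETDB1 peaks at a TRIM28 peak in 22.4% (chromosomes 6.66%). SETDB1 peaks at an H3K9me3 peak (28.6%, chromosomes 22.3%), H3K9me3 peaks at a SETDB1 peak (15.8%, chromosomes 19.6%) and TRIM28 peaks at a SETDB1 peak (7.43%, chromosomes 7.58%) did not differ from the chromosomes beyond counting error, with intervals of -4.49 to 20.1, -9.84 to 4.79 and -3.38 to 5.25 percentage points.

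ARID1A overlap in shCtrl cells lay close to that on the chromosomes. Of its 95 peaks 9.47% lay at a SETDB1 peak (chromosomes 11.3%), 10.5% at a TRIM28 peak (5.19%) and 9.47% at an H3K9me3 peak (10.1%), and the interval of the difference was above 0 for TRIM28 alone (0.63 to 13.1 percentage points). In reverse, 16.3% of SETDB1 peaks (chromosomes 15%), 7.43% of TRIM28 peaks (8.01%) and 10.5% of H3K9me3 peaks (11.8%) lay at an ARID1A peak. Where input peaks had to be in the IgG list of their library too, 1.52% of 66 ARID1A peaks lay at a TRIM28 peak.

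In unmodified cells 28.9% of TRIM28 peaks lay at an H3K9me3 peak (chromosomes 2.91%) and 22.4% of H3K9me3 peaks at a TRIM28 peak (8.41%). ARID1A peaks, of which there were 35, lay at a TRIM28 peak in 28.6% of cases (6.16%) and at an H3K9me3 peak in 11.4% (2.32%). TRIM28 peaks lay at an ARID1A peak in 13.2% (5.61%) and H3K9me3 peaks in 4.08% (5.97%). Over all 36 directions the share on unplaced and unlocalized sequences was above that on the chromosomes in 28, with the interval of the difference above 0 in 25 and below 0 in 0. The median within a cell state was 16.6% and 7.72% on the chromosomes, and between states 11.9% and 4.74%. On alternate loci the medians were 5.82% and 3.39%. The length of these sequences was not used here, so the overlap that dense lists have on short sequences was not taken off.

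**Figure D5:**
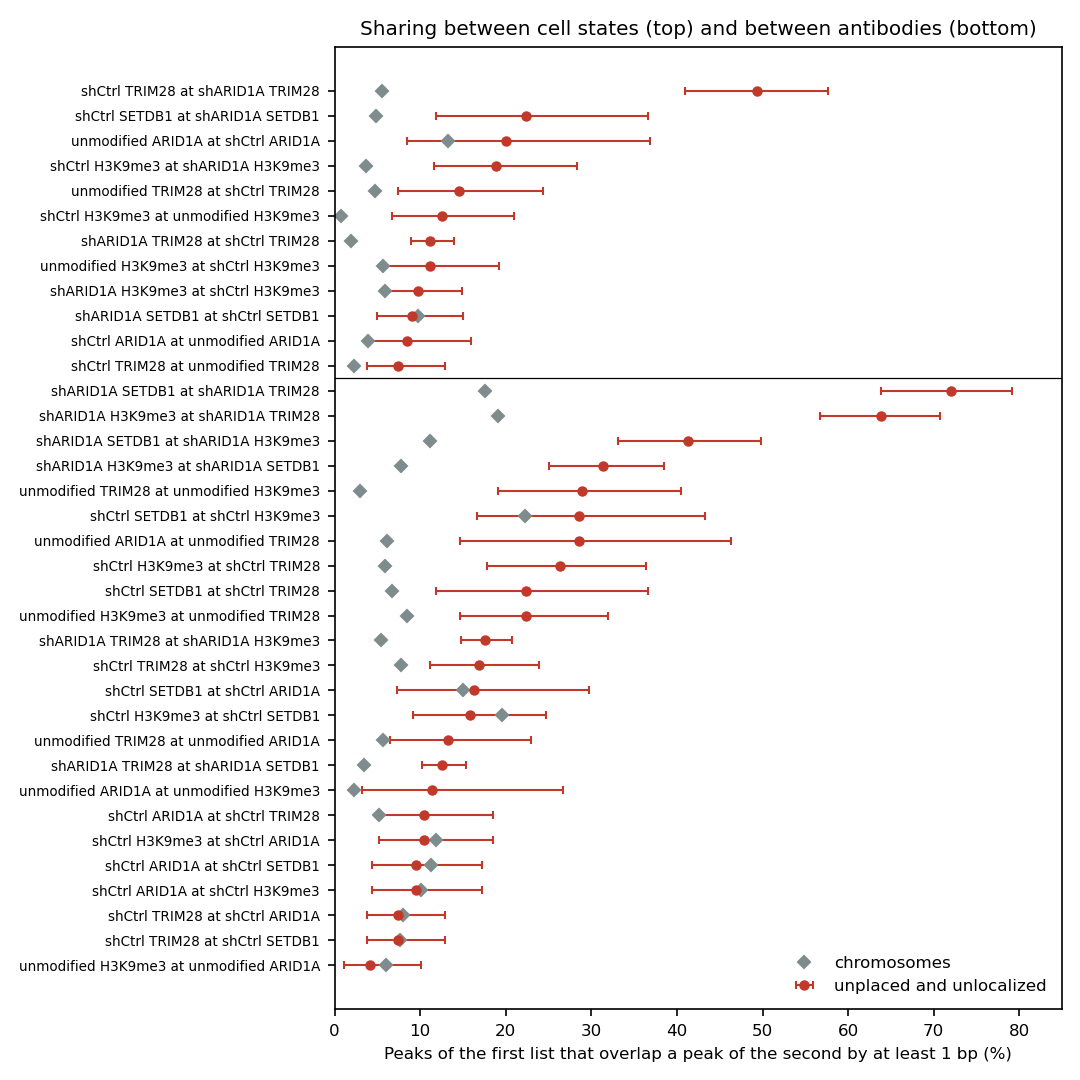
Share of peaks of the first list that overlap a peak of the second by at least 1 bp (x axis, percent), for 12 directions between cell states (top) and 24 between antibodies of a state (bottom); circles with exact 95% intervals are unplaced and unlocalized sequences, diamonds the chromosomes. The highest shares are shARID1A SETDB1 at TRIM28 (72.0%) and shARID1A H3K9me3 at TRIM28 (63.9%).

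Merging the 10 input lists gave 996 regions on unplaced and unlocalized sequences. Of these 13.5% (11.4% to 15.7%) were held by at least 3 libraries, against 4.75% of 584325 regions on the chromosomes and 3.05% of 3415 on alternate loci. All 3 shARID1A libraries held 49 regions, 4.92% (3.66% to 6.45%), against 0.363% on the chromosomes. Of the 49, 23 were held by no shCtrl or unmodified library. On the chromosomes this held for 710 of the 2120 regions that all 3 held. As a share of all regions these were 2.31% (1.47% to 3.44%) and 0.122%.

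Local background, which the peak caller takes from the control, was raised on these sequences. The median background at peaks was 1.03 to 4.6 times that at chromosome peaks of the same list (median over the 10 input lists 1.68), and the highest single value of a list was 14 to 244 fragments. It was 3.1 times in shARID1A H3K9me3, 1.03 times in shARID1A TRIM28 and 3.18 times in shARID1A SETDB1, and 1.05, 2.02 and 1.6 times in the same antibodies of shCtrl cells. Alternate loci lay at 0.775 to 1.1 times. In the IgG lists it was 0.912 to 1.16 times in the 7 libraries of hairpin cells and 1.52 to 3.81 times in the 3 of unmodified cells.

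Strong peaks gathered where background was high. Of shARID1A TRIM28 peaks with a background of at least 3 times the chromosome median 54.7% of 179 were strong, and 9.58% of 480 below it. For shARID1A H3K9me3 the shares were 53.8% of 106 and 20.5% of 88, and for shCtrl TRIM28 35.4% of 65 and 4.82% of 83. In shARID1A SETDB1 the split made little difference, 44.4% of 72 and 40.8% of 71. Below it the share lay above that of all chromosome peaks, beyond its exact interval, in 4 of the 10 libraries: TRIM28 and SETDB1 of shARID1A cells, and TRIM28 and ARID1A (2.7% of 74, against 0.0404%) of shCtrl cells. The remaining libraries showed no such excess, and in each the exact interval held the chromosome share. Their shares are loosely bounded, and chromosome peaks were not split by background. For H3K9me3 the share was 20.5% in shARID1A cells (chromosomes 21.3%) and 4.62% of 65 in shCtrl cells (chromosomes 7.42%, exact interval 0.962% to 12.9%). In unmodified cells it was 0 of 41 (chromosomes 0.149%, exact interval 0% to 8.6%). Besides H3K9me3, shCtrl SETDB1 had 56.2% of 32 (chromosomes 47.5%, exact interval 37.7% to 73.6%). Unmodified TRIM28 had 1.92% of 52 (0.207%) and unmodified ARID1A 0 of 29 (2.83%). At a given fold a higher background gives a lower p, and the median fold was lower where background was high (2.64 and 2.82 in shARID1A TRIM28, 2.12 and 3.68 in shARID1A SETDB1).

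Alternate loci held 3979 peaks of the input lists on 215 sequences, with 506 strong, of which 359 belonged to shCtrl SETDB1. The most peaks lay on chr16_KI270853v1_alt (255), chr5_GL339449v2_alt (236) and chr17_KI270857v1_alt (205). On the first of these shARID1A TRIM28 had 104 peaks with 0 strong (exact interval 0% to 3.48%; chromosomes 1.05%) and shCtrl SETDB1 52 with 22 strong (42.3%; chromosomes 47.5%). On chr17_KI270857v1_alt they had 86 with 0 strong and 35 with 17 strong (48.6%). These strong shares lie within counting error of those of the same lists on the chromosomes.

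The 7 alternate haplotypes of the major histocompatibility complex on chromosome 6, the region of the HLA antigen-presentation genes, carried 21 shARID1A SETDB1 peaks with 2 strong and 187 shCtrl SETDB1 peaks with 96 strong (51.3%; chromosomes 47.5%). TRIM28 had 102 peaks with 1 strong in shARID1A cells (0.98%; chromosomes 1.05%) and 2 with 0 strong in shCtrl cells. H3K9me3 had 42 with 7 strong in shARID1A cells (16.7%; chromosomes 21.3%) and 31 with 1 strong in shCtrl cells (3.23%; chromosomes 7.42%). In each of these libraries the chromosome share lies within the exact interval of the strong share on the haplotypes, which thus followed their lists. A site on chr15_KI270850v1_alt, from 107387 to 107747, was the leading member of shARID1A H3K9me3 (fold 15.7, −log10 q 29.7). It overlapped the peak of shCtrl SETDB1 from 107326 to 107809, which had a fold of 14, and peaks of shARID1A TRIM28 and SETDB1. Reads of an alternate locus can also map to the chromosome copy.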

How the data were processed

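ChIP-seq peak lists of 10 precipitated HCT116 libraries (1 per cell state and antibody) were used, in 20 lists, since the authors called each once against input and once against IgG. No list belongs to the 6 control samples. MACS2 2.2.7.1, Bowtie2 2.2.5, ChIPseeker, FastQC 0.11.9 and deepTools 3.5.1, with the builds GRCh38 and hg38, are named in the submitters' processing notes. The sources used here do not give their options, the treatment of reads that map to several places or the read depth. The deposited fold enrichment of a peak is a ratio of summit pileup to local background. The deposited −log10 p and −log10 q come from the same call. All are the authors' values, and fold was used to describe and rank peaks within a list. The control of a list is given in its file name alone.

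Sequences were classed by name. Peaks were counted, merged and overlapped (at least 1 bp) with Python 3.11.15, numpy 2.4.6, pandas 2.3.3 and scipy 1.17.1, and figures drawn with matplotlib 3.10.9. Shares have exact Clopper-Pearson intervals, differences Newcombe intervals and ratios of counts exact conditional ones, all at 95% and of counting error only. With 1 library per group no test between conditions was made. Pileup and background were solved from each fold and p under a Poisson model, with whole fragments times a scale per list (tolerance 0.0005 in −log10 p, or 0.2%), for 100% of members, and for 1000 sampled chromosome peaks per list. The overlap and pileup steps were checked on simulated data. Named were the sequences with the most peaks (8) or strong peaks in at least 3 libraries, the 2 peaks of highest −log10 q per input list and the 5 regions held by the most libraries, from which the text takes those it describes. Members, rules and lists were chosen with earlier results of these data known. The alternatives were the IgG lists, strong peaks only, leaving out chr14_GL000225v1_random, merging within 1 kb, both controls required, 50% overlap and lists of different controls. Adding alternate loci and leaving out ribosomal DNA were chosen after seeing the data. The chromosomes compared are 1 to 22, X, Y and the mitochondrial genome, which had 0 peaks against input.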

Additional observations from a re-analysis of the deposited data

How the results depend on the processing

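No paired analysis was possible because each group holds 1 library and no result comes from a test. Leaving out chr14_GL000225v1_random moved no log2 ratio or share outside its counting interval, and asking for 50% overlap moved no share outside it. The sum of peaks over the 10 lists, 1592 against input, was 3036 against IgG, 381 among strong peaks and 982 with both controls required. It was 1433 without chr14_GL000225v1_random and 5571 with alternate loci. Log2 ratios of shARID1A over shCtrl left their intervals for H3K9me3 against IgG (0.60), among strong peaks (2.42) and with alternate loci (0.48), for TRIM28 against IgG (0.27), after merging within 1 kb (1.86) and with alternate loci (2.97), and for SETDB1 among strong peaks (0.98) and after merging (0.92). Strong peaks on the chromosomes gave 0.83 for H3K9me3, 6.25 for TRIM28 and -4.79 for SETDB1, so the TRIM28 ratio, 2.42 among strong peaks, turned from above to below that of the chromosomes. The SETDB1 ratio changed sign with alternate loci (-0.975), the only change of sign among these results.

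The share of shARID1A peaks found in shCtrl cells was 5.33% for H3K9me3 among strong peaks, 3.81% with both controls required and 5.7% with alternate loci, and for TRIM28 15.7% against IgG, 5.91% with both controls required and 3.57% with alternate loci. For SETDB1 it stayed within its interval under each alternative run. Within shARID1A cells, SETDB1 at TRIM28 was 32.8% against IgG, 82% among strong peaks, 61.4% after merging, 60.4% with both controls required, 34.9% with alternate loci, 61.5% without ribosomal DNA, 60.8% with TRIM28 against IgG and 24.7% with SETDB1 against IgG. SETDB1 at H3K9me3 was 26.9% against IgG, 53% after merging, 16.5% with both controls required, 20.7% with alternate loci, 25.2% with H3K9me3 against IgG and 9.06% with SETDB1 against IgG. H3K9me3 at TRIM28 was 30.9% against IgG, 41% with both controls required, 30.3% with alternate loci, 39.2% with TRIM28 against IgG and 25.5% with H3K9me3 against IgG. For shCtrl ARID1A, the share at SETDB1 was 0% among 9 strong peaks. At TRIM28 it was 22.2% among strong peaks, 1.52% with both controls required, 3.94% with alternate loci, 3.16% with TRIM28 against IgG and 2.75% with ARID1A against IgG. At H3K9me3 it was 33.3% among strong peaks, 1.52% with both controls required, 4.21% with H3K9me3 against IgG and 3.92% with ARID1A against IgG. Median background over that of the chromosomes was 0.997 times in the IgG lists and 6.88 times among strong peaks. The cause of these changes was not tested. Depth per library is unknown, and with 35 to 659 peaks per input list small shares are loosely bounded.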
